A study of Mus musculus with 8 samples.

Results

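The nuclear genes for the 5 oxidative phosphorylation complexes were followed in mouse adrenal glands. They were chosen by gene symbol (symbols that begin with Nduf followed by a, b, c, s or v and a number, with Sdha to Sdhd, with Uqcr, with Cox4 to Cox8 or with Atp5) and by a summed count of at least 80 over the 8 libraries. This gave 81 of the 18846 gene symbols listed: 37 of complex I, 4 of complex II, 8 of complex III, 15 of complex IV and 17 of complex V. All 81 were abundant enough to be tested. Just inside the limit were Cox4i2 with 206 counts, Cox6b2 with 383 and Ndufs5 with 394, and the only matching symbol outside it was Cox6a2 with 42. The rule goes by name, and 4 of the 81 are not classed as structural subunits: Cox7a2l, which takes part in the assembly of supercomplexes, Ndufa4l2, Atp5s (now Dmac2l) and Atp5sl (now Dmac2). The other 77 code for subunits.

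Oxidative phosphorylation takes place in the inner mitochondrial membrane. Complex I (NADH dehydrogenase) and complex II (succinate dehydrogenase) pass electrons to ubiquinone, complex III passes them on to cytochrome c, and complex IV (cytochrome c oxidase) reduces oxygen, while the proton gradient built by complexes I, III and IV drives the ATP synthase, complex V. Steroid-producing cells of the adrenal cortex are rich in mitochondria, which also hold the enzymes for the first and last steps of corticosteroid synthesis, and inherited loss of succinate dehydrogenase subunits is a known cause of tumours of chromaffin cells, the catecholamine cells of the adrenal medulla.

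The series compared glands of wild-type and Siah1a -/- mice, and its title names the regulation of adrenal organization and hyperaldosteronism by the E3 ubiquitin ligase Siah1. Siah1a is 1 of the mouse genes for such ligases, which mark other proteins for degradation. All animals carried the strain label 129SVEV, and no age is used here. In each genotype 1 male and 1 female were untreated, and 1 male and 1 female had received adrenocorticotropic hormone (ACTH, the pituitary hormone that drives cortical steroid synthesis) intraperitoneally at 100 µg/kg, with harvest after 1 hour. The untreated animals had no agent, so that injection and ACTH cannot be told apart. Each of the 8 libraries came from 1 gland of 1 animal, and each of the 4 groups held 2 animals. The tissue holds cortex, medulla and any attached fat, and in such bulk RNA fewer cells of a type and less RNA per cell cannot be told apart.

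The promoters of these genes are known for binding sites of nuclear respiratory factor 1 (NRF1), a regulator of many respiratory genes. Its recognition sequence (GCGCA, any base, then GCGC) was searched on both strands in windows of 300 bases (250 before and 50 after the start of the gene, RefSeq, GRCm38.p6), which the sequence table held for 68 of the 81 genes. It was present in 17 of the 68 (25.0%), against 10.2% of the 11630 tested genes with a window and 5.19% of all 27025 genes with one. By complex it was found in 2 of 3 windows of complex II, 6 of 16 of complex V, 7 of 32 of complex I, 1 of 5 of complex III and 1 of 12 of complex IV. The YY1 sequence AAGATGGC was found in 11 of the 68 windows (16.2%, against 4.71% of tested genes), and the ETS sequence CCGGAAGT in 5 (7.35%, against 7.90%). Matches to the 3 sequences were counted separately, whether or not they overlap, and a match is a description of the sequence only. The 250 bases before the start are given for 4 genes, 5′ to 3′ on the strand of the gene, with matches to the NRF1 sequence in capitals. Sdha and Sdhd, both of complex II, have 3 matches and 1 match. Atp5g2 has 1 match and Cox7a1 has none. Cox7a1, the gene with the lowest knockout to wild-type ratio, was chosen after its values were seen. The 4 genes do not stand for the 68, of which 17 have a match. Whether a match goes with a change in the knockout or after ACTH was not tested.
Sdha, chr13:74350241-74350490, minus strand: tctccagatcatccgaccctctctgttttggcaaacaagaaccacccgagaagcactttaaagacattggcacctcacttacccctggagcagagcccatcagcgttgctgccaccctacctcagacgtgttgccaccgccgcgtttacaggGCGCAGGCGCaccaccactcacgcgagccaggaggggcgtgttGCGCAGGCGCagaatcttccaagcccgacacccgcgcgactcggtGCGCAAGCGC
Sdhd, chr9:50603850-50604099, minus strand: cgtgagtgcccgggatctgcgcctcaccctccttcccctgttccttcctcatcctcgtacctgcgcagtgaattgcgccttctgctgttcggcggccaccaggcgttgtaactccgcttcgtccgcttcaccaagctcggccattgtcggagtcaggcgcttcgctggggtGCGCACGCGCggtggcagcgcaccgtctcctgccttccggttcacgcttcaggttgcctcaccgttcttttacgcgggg
Atp5g2, chr15:102671048-102671297, minus strand: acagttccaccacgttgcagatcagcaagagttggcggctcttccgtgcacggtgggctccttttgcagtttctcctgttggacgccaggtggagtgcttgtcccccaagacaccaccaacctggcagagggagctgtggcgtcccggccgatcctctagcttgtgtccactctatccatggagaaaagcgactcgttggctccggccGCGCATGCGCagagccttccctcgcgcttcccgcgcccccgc
Cox7a1, chr7:30183921-30184170, plus strand: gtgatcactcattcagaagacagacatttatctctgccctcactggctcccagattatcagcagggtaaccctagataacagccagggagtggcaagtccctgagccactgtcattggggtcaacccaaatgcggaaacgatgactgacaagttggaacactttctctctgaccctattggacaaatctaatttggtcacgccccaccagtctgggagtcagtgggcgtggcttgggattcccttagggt
Counted back from the start of the gene, the matches before Sdha lie at -98 to -89, -55 to -46 and -10 to -1. The match before Sdhd lies at -79 to -70 and the match before Atp5g2 at -42 to -33. For Sdhd and Atp5g2 the bases just after the start were not found in a GENCODE transcript of that name, so that these distances are uncertain.

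The libraries held 8020111 to 29568950 estimated counts, of which the 81 genes took 1.54 to 2.57%. Siah1a was still counted in the knockout, at 17.4 to 25.2 CPM (the count of a gene relative to its TMM-scaled library total) against 26.1 to 33.1 CPM in wild type. Transcripts in 2 wild-type libraries limit the comparisons. In the untreated library labelled wild-type male, Xist, the RNA of the inactive X chromosome, stood at 388 CPM. It lacked counts for Kdm5d, Uty and Eif2s3y of the Y chromosome (0 counts allow up to 0.353 CPM, by counting error only), and held all 10 of a list of kidney genes, at 2140 CPM together against at most 12.9 CPM elsewhere. In the wild-type female given ACTH, 10 liver genes summed to 66982 CPM, against at most 1342 CPM elsewhere. Genes of the adrenal cortex were abundant in all 8 libraries, with a list of 10 cortical genes at 29608 to 57475 CPM, as were 11 genes of chromaffin cells, at 2446 to 4789 CPM together over wild-type glands and 2150 to 8798 CPM over knockout glands. The medians over the 81 genes are also given without these 2 wild-type libraries, except for the effects by sex label.

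Compared per length of transcript, with the deposited RPKM values, the F1 catalytic subunit Atp5b was the most abundant of the 81 genes, at 967 ± 223 RPKM (SD, n = 8). Cox4i1, a structural subunit of complex IV, followed at 892 ± 208 RPKM, a difference within the spread over libraries. Ndufa4 stood at 626 ± 104 RPKM, Atp5l at 608 ± 101, Cox6b1 at 582 ± 159, Atp5g3 at 559 ± 80.4 and Cox6c at 506 ± 119, and these neighbours differed by less than their SD. Ndufa4 was first described in complex I and is nowadays assigned to complex IV. The median gene stood at 190.0 RPKM. Medians by complex were 142 RPKM for complex I, 195 for complex II, 284 for complex III, 269 for complex IV and 286 for complex V. The flavoprotein Sdha stood at 224 ± 65.7 RPKM and the iron-sulphur subunit Sdhb at 264 ± 54.6, with the membrane anchors Sdhd at 167 ± 48.5 and Sdhc at 131 ± 47.5. Uqcrb (417 ± 74.6 RPKM) and Uqcrh (405 ± 85.7 RPKM) led complex III. At the low end were Cox4i2 (1.78 RPKM), Cox6b2 (4.95), Ndufs5 (5.71), Atp5s (7.26), Ndufa4l2 (7.67) and Atp5sl (9.50), of which Cox4i2 and Cox6b2 are isoforms of restricted tissues and the last 3 are among the 4 genes outside the subunits.

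**Figure D1:**
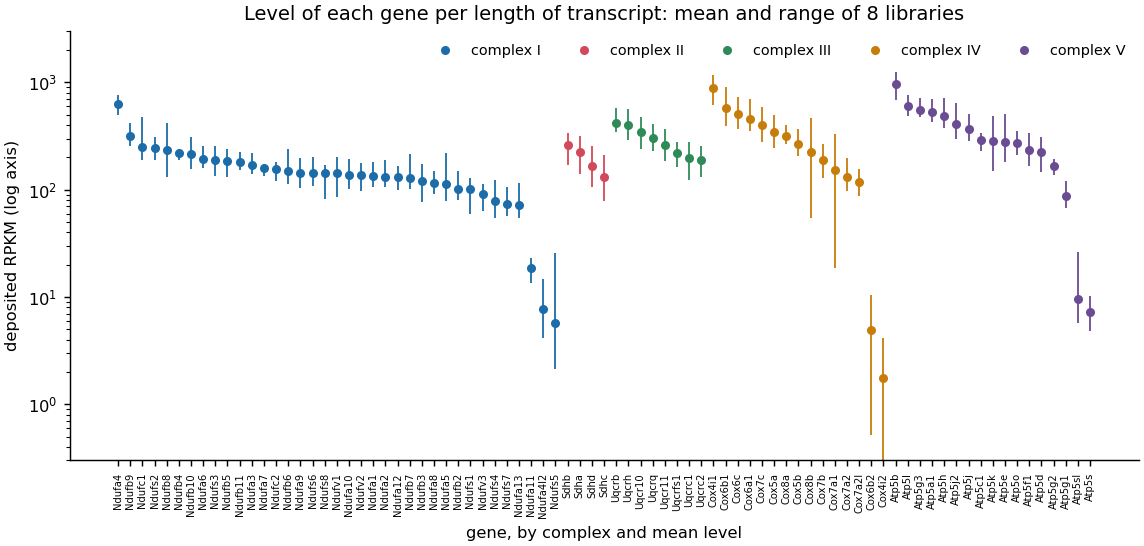
Deposited RPKM (log axis) of the 81 genes, grouped and coloured by complex and ordered by mean; points are means and lines the range of the 8 libraries. Atp5b and Cox4i1 are at the top, the line of Cox4i2 runs off the lower edge because 1 library lists it at 0.

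Except in the wild type given ACTH, the summed level of the 81 genes differed more between the animals of a group than between the means of genotypes or treatments. In CPM it was 24259 and 16320 in the untreated wild-type libraries (labelled male, then female), 15561 and 18232 in untreated knockout glands, 21205 and 19713 in the ACTH-treated wild type and 17196 and 22670 in the ACTH-treated knockout. The highest and the next to lowest value thus came from the same group. Wild type averaged 20374 ± 3300 CPM and the knockout 18415 ± 3042 (SD, n = 4 each), and untreated glands averaged 18593 ± 3941 CPM against 20196 ± 2336 after ACTH. Of the 81 genes, 42 (51.9%) were highest in the untreated library labelled wild-type male, which was the highest library for 19.0% of all tested genes, and 21 (25.9%) were highest in the ACTH-treated knockout female, against 13.01% of all genes. The first of these held the kidney transcripts and the fewest counts, and their part in these levels was not tested. The lowest value fell in the untreated knockout male for 31 genes (38.3%, against 10.6% of all tested genes). It fell in the untreated wild-type female for 22 (27.2%, against 6.11%) and in the ACTH-treated knockout male for 19 (23.5%, against 17.8%). The untreated library labelled wild-type male was lowest for 2 (2.47%), but for 30.9% of all genes.

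**Figure D2:**
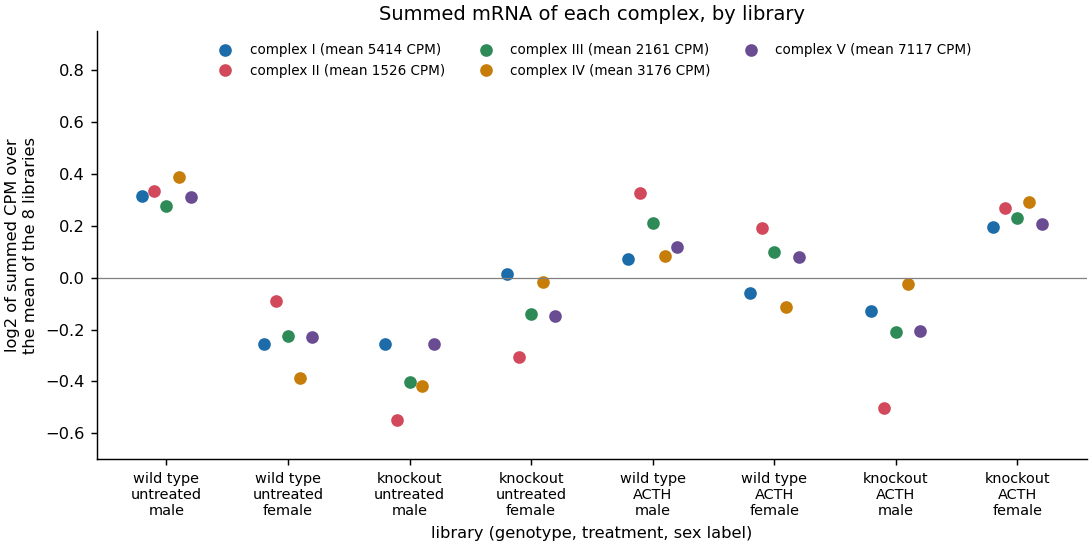
Summed CPM of the genes of each complex in each library, as log2 of its ratio to the mean of the 8 libraries; 1 point per complex and library. The untreated library labelled wild-type male and the ACTH-treated knockout female lie above 0 for all 5 complexes, and complex II (red) spreads the most, with both knockout males at the bottom.

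In the comparison of knockout with wild type, averaged over treatments and sexes as labelled, none of the 81 genes passed edgeR's quasi-likelihood test (adjusted p under 0.05, Benjamini-Hochberg over 15361 genes). The test called 0.026% of all genes. At an unadjusted p under 0.05 stood 2 of the 81 genes, Sdha and Ndufs1, against 13.4% of all genes. Log2 fold changes were below 0 for 53 genes and above 0 for 28, while 53.5% of all tested genes were below 0. The median over the 81 genes was -0.12 against -0.04 over all tested genes, and 74 of the 81 lay within 0.5 of 0 (median SE 0.20). Without the untreated library labelled wild-type male the median was 0.10 (33 genes below 0), without both wild-type libraries with transcripts of kidney or liver it was 0.05, and without the untreated knockout male it was 0.0020 (40 below 0), so that its sign rests on single libraries. With 1 library left out at a time, 1 to 11 of the 81 genes had an unadjusted p under 0.05, the 11 without the ACTH-treated knockout female, and none passed. The share of all genes at such a p is not given for these fits, so that the counts cannot be set against it. In no gene did the 4 knockout libraries lie wholly apart from the 4 wild-type ones, which 8.92% of all genes did.

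Complex II had the lowest median, -0.35, with all 4 genes below 0. Sdha (chromosome 13, 74322255 to 74350240, GRCm38.p6), the subunit that oxidizes succinate, stood at 933 and 775 CPM in untreated wild type (labelled male, then female) and 1066 and 909 CPM after ACTH. Among knockout glands the untreated ones held 525 and 556 CPM and those given ACTH 481 and 807 CPM. It was thus lower in all 4 pairs of animals matched by treatment and sex label (12.7% of all genes were), and only the ACTH-treated knockout female reached into the wild-type range. Means were 921 ± 119 CPM for wild type and 592 ± 146 CPM for the knockout (SD, n = 4 each), which gave a log2 fold change of -0.65 (SE 0.19, edgeR adjusted p = 0.215). DESeq2, which called 6.41% of the genes it gave an adjusted p, called Sdha alone among the 81 genes (adjusted p = 0.015), while the 19 other settings gave adjusted p-values of 0.125 to 0.504.

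Of the other genes of complex II, all 3 were lower in both knockout males, and 2 were higher in both knockout females. Sdhb, which carries the iron-sulphur clusters, stood at 223 and 287 CPM in the knockout males (untreated, then ACTH) against 406 and 363 CPM in the libraries labelled wild-type male, but at 325 and 407 CPM in the knockout females against 316.5 and 342 CPM in the wild-type females. The anchor Sdhd likewise stood at 165 and 196 CPM in the knockout males against 308 and 267 CPM, and at 223 and 381 CPM in the knockout females against 203 and 288 CPM. The anchor Sdhc was lower in 3 of 4 pairs. Summed over the 4 genes, complex II averaged 1754 ± 228 CPM for wild type and 1298 ± 370 CPM for the knockout. The knockout libraries held 1043, 1076, 1233 and 1839 CPM and the wild-type libraries 1435 to 1926 CPM, so that 3 of the 4 knockout glands lay below every wild-type gland. The chromaffin genes split the same libraries: they summed to 8798 and 6985 CPM in the untreated knockout male and female and 7837 CPM in the ACTH-treated knockout male, the 3 glands low in complex II, and to 2150 CPM in the ACTH-treated knockout female. The list of cortical genes was also highest in these 3 glands, at 54732, 50516 and 57475 CPM against at most 48629 CPM elsewhere. Genes of the tricarboxylic acid cycle and the outer membrane were lowest there, at 6686, 7112 and 6877 CPM against at least 7744.5 CPM elsewhere. The part of these lists in the result was not tested.

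Complex I had a median of -0.01 with 20 of 37 genes below 0. Ndufs1 (chromosome 1, 63143592 to 63176822), the largest subunit of the electron input arm, averaged 375 ± 35.4 CPM for wild type and 272 ± 83.1 CPM for the knockout. Its log2 fold change was -0.50 (SE 0.20, edgeR adjusted p = 0.347). The knockout values were 230 and 270 CPM untreated and 198 and 388 CPM after ACTH (male, then female), and again it was the ACTH-treated knockout female that lay within the wild-type range of 326.5 to 411 CPM. Ndufv1, which binds NADH, averaged 306 ± 79.0 CPM for wild type and 233 ± 77.1 CPM for the knockout and was lower in 2 of 4 pairs. The abundant Ndufa4 (345 ± 39.9 against 384 ± 67.8 CPM) and Ndufb9 (239.8 ± 48.0 against 243 ± 23.3 CPM) differed between genotypes by less than the spread over animals.

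Complex III had a median of -0.23, with 7 of 8 genes below 0. Uqcrb, a small subunit of complex III, was lower in the knockout in all 4 pairs, the only gene beside Sdha to be so. It stood at 327 and 237 CPM in untreated wild type and 212 and 226 CPM in untreated knockout glands (male, then female), and at 231 and 269 CPM against 216 and 265 CPM after ACTH, so that the pairs given ACTH differed by less than the SD within a genotype. Its log2 fold change of -0.21 (SE 0.17) had an adjusted p of 0.642 in edgeR's test. The core proteins Uqcrc1 and Uqcrc2 and the Rieske iron-sulphur protein Uqcrfs1 were each lower in the knockout males and did not pass. Uqcrc2 stood at 311 and 300.4 CPM in the knockout males against 437 and 560 CPM in the libraries labelled wild-type male. No gene was higher in the knockout in all 4 pairs, against 10.8% of all genes.

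Complex IV had a median of -0.14, and its genes split by isoform. The 10 common isoforms had a median of -0.13 and ranged from -0.23 to 0.33, with Cox4i1 at the upper end (629.5 ± 126 CPM for wild type, 792 ± 161 CPM for the knockout, log2 fold change 0.33, SE 0.19, edgeR adjusted p = 0.508). The 4 isoforms of restricted tissues ranged from -1.66 (Cox7a1) to 1.23 (Cox4i2), with a median SE of 1.07. Complex V had a median of -0.08. Its 5 F1 subunits had a median of -0.27, with Atp5b at 2354 ± 390 CPM for wild type and 1943 ± 489 CPM for the knockout. The 3 genes for the c-ring of the rotor, Atp5g1, Atp5g2 and Atp5g3, which make the same mature protein, had a median of 0.04, and Atp5g3 stood at 474 ± 75.2 and 474 ± 62.0 CPM. None of these passed.

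**Figure D3:**
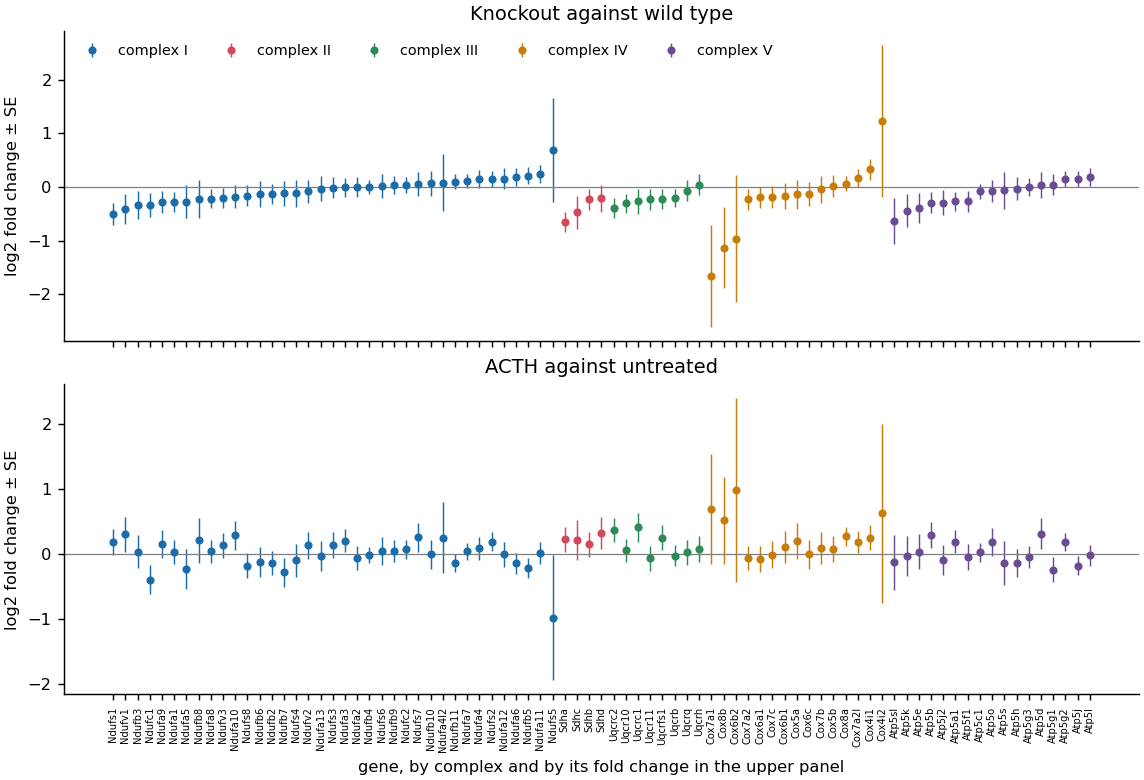
Log2 fold change with its standard error for each of the 81 genes, knockout against wild type above and ACTH against untreated below, grouped and coloured by complex and ordered by the upper panel. The 4 genes of complex II lie below 0 in the upper panel and above 0 in the lower one, and the wide bars of complex IV are the isoforms Cox7a1, Cox8b, Cox6b2 and Cox4i2; no gene passed in either comparison.

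Set out by sex label, the 2 pairs labelled male and the 2 pairs labelled female gave opposite signs. In the untreated pair labelled male, 77 of the 81 genes were lower in the knockout (median difference -0.62 in log2 CPM), and in the ACTH-treated male pair 63 were lower (median -0.23). In the untreated female pair 68 genes were higher in the knockout (median 0.25) and in the ACTH-treated female pair 63 (median 0.22). The share of all genes with these signs is not given for single pairs. In a model with a term for the difference, chosen after the data were seen, the knockout effect had a median of -0.44 in animals labelled male (0.0% of all genes called) and 0.26 in those labelled female (0.0391% called), with no member called. The difference between them (female minus male) was above 0 for 78 of 81 genes, with a median of 0.71, against 46.9% of all tested genes and a median of -0.05. No member passed for the difference itself (edgeR adjusted p of 1 for each, 0.013% of all genes called). At an unadjusted p under 0.05 for the difference stood 34.6% of the 81 genes, against 3.42% of all genes. By complex the difference had a median of 0.87 for complex II, 0.81 for complex IV, 0.71 for complex V, 0.68 for complex I and 0.62 for complex III. The 3 exceptions were Cox4i2, Atp5g1 and Atp5g3, so that 2 of the 3 c-ring genes did not share the pattern.

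The signs were the same without the untreated library labelled wild-type male, and the difference was smaller. By its sex transcripts that library is not matched with the knockout male it is paired with. In the ACTH-treated libraries labelled female, all 4 genes of the Y chromosome were counted, at 0.0766 to 3.52 CPM in the knockout and 1.22 to 13.3 CPM in wild type, whereas both knockout males and the ACTH-treated wild-type male held 15.5 to 376 CPM of each. Without the untreated library labelled wild-type male the male effect had a median of -0.21, the female effect 0.24 and their difference 0.48, again with no member called (0.0066% of all genes). At an unadjusted p under 0.05 for the difference then stood 7.41% of the 81 genes, against 2.51% of all genes. The male effect then comes from the untreated and ACTH-treated knockout males against 1 wild-type male. Above 0 for the difference were 75 of the 81 genes, with medians of 0.61 for complex II, 0.48 for complexes I and IV, 0.46 for complex III and 0.29 for complex V. Every fit by sex label kept the ACTH-treated wild-type female, the library with the liver transcripts, so that its part in the female effect was not tested. With 1 animal for each combination, sex label and the individual animal cannot be told apart.

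**Figure D4:**
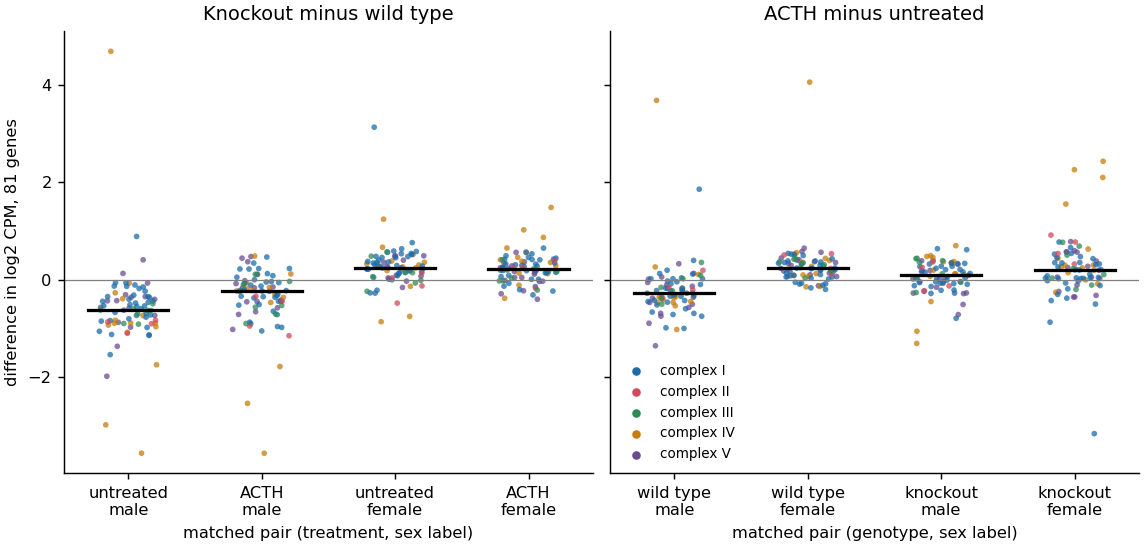
Difference in log2 CPM between the 2 animals of each matched pair, for knockout minus wild type (left) and ACTH minus untreated (right); 1 point per gene, coloured by complex, with black bars at the median of the 81 genes. On the left the pairs labelled male have medians of -0.62 and -0.23 and the pairs labelled female 0.25 and 0.22; on the right 3 of the 4 medians are above 0.

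ACTH for 1 hour changed none of the 81 genes by edgeR's test (0.0195% of all genes were called), and none had an unadjusted p under 0.05, against 6.11% of all genes. The median log2 fold change was 0.04 (0.02 over all genes) and became -0.04 when scaled to library totals and -0.01 from the deposited RPKM, with 76 of 81 genes within 0.5 of 0. DESeq2 called none of the 81 either, and 123 of all genes. Medians by complex were 0.22 for complex II, 0.19 for complex IV, 0.07 for complex III (-0.02 when scaled to library totals), 0.04 for complex I (-0.05 and, from RPKM, -0.04) and -0.03 for complex V (0.01 by limma-voom). Without the 2 wild-type libraries with kidney or liver transcripts the median was 0.28, with 68 of 81 genes above 0 and 16 at an unadjusted p under 0.05, and without the untreated library labelled wild-type male alone it was 0.23, with 10 genes at such a p. The share of all genes at such a p is not given for these fits, so that the counts cannot be set against it. None passed in either setting. In no gene did the 4 ACTH-treated libraries lie wholly apart from the 4 untreated ones, against 3.89% of all genes.

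Higher after ACTH in all 4 pairs matched by genotype and sex label were 8 genes, a share of 81 close to the 8.14% of all genes. The 7 of them named by the rule were the complex I core subunits Ndufv1 and Ndufs7, Uqcrc1 and Uqcrfs1 of complex III, Cox8a of complex IV, and Atp5b and Atp5g2 of complex V. Uqcrc1 (chromosome 9, 108936648 to 108949641) had the highest log2 fold change among them, 0.41 (SE 0.23, edgeR adjusted p = 0.845). It went from 461 and 321 CPM to 491.5 and 408 CPM among wild-type glands (male, then female) and from 245 and 318 CPM to 333 and 542 CPM among knockout glands, with means of 336 ± 90.2 CPM untreated and 443 ± 92.2 CPM after ACTH. Cox8a, at 186 ± 15.3 CPM untreated and 225 ± 27.0 CPM after ACTH, had a log2 fold change of 0.27 (SE 0.14), and Atp5b one of 0.29 (SE 0.20). Lower after ACTH in all 4 pairs was 1 gene (7.49% of all genes were), the complex I accessory subunit Ndufc1, at 139 ± 55.9 CPM untreated and 103 ± 6.95 CPM after ACTH. Its log2 fold change of -0.39 (SE 0.22, edgeR adjusted p = 0.848) draws on the untreated library labelled wild-type male, at 222 CPM against 95.8 to 122 CPM in the other 7, and was -0.11 without it.

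Within single groups the test found nothing either. Of the 81 genes 0 passed for the knockout in untreated glands (0.0% of all genes called, median -0.23, 61 genes below 0), for the knockout after ACTH (0.00651% called, median -0.01, or 0.04 when scaled to library totals), for ACTH in wild type (0.0% called, median -0.06) and for ACTH in the knockout (0.0% called, median 0.16, 65 genes above 0). In these 4 comparisons none had an unadjusted p under 0.05 by edgeR, against 4.84, 8.23, 2.56 and 4.22% of all genes in the order given. DESeq2 called none of the 81, and 110, 501, 37 and 98 of all genes in the same order. Over all tested genes, 49.9% were below 0 for the knockout in untreated glands and 48.7% above 0 for ACTH in the knockout. All 4 medians of the 81 genes changed sign when 1 library was left out. The knockout median in untreated glands was 0.20 (14 below 0) without the library labelled wild-type male and -0.58 (76 below 0) without the wild-type female, and that of ACTH in wild type 0.40 and -0.39 without the same libraries. The knockout median after ACTH was 0.22 without the knockout male and -0.29 without the knockout female given ACTH, and that of ACTH in the knockout 0.43 and -0.13. A fit without 1 library can leave 1 animal in a group compared, so that only effect sizes are given here. Without both wild-type libraries with kidney or liver transcripts the medians were 0.28, -0.26, 0.69 and 0.16. The difference of the ACTH effect between genotypes was above 0 for 68 of 81 genes (44.3% of all genes), with a median of 0.19 (-0.09 over all genes). It passed for none (0.0% called). No member had an unadjusted p under 0.05 for it, against 1.84% of all genes. Without the untreated library labelled wild-type male that median was -0.24, without the untreated wild-type female 0.54, without the ACTH-treated knockout female -0.10 and without both wild-type libraries with kidney or liver transcripts -0.55.

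The complex IV isoforms Cox7a1 and Cox8b, which are typical of heart, skeletal muscle and brown fat, varied far more than their common counterparts Cox7a2 and Cox8a. Cox7a1 (chromosome 7, 30184171 to 30186030) stood at 134 and 47.7 CPM in untreated wild type (labelled male, then female), 98.3 and 68.9 CPM in wild type given ACTH, 11.3 and 26.2 CPM in untreated knockout glands and 8.25 and 126 CPM in knockout glands given ACTH. Cox8b stood, in the same order, at 187 and 64.4, 150.1 and 84.7, 23.7 and 58.7, and 25.8 and 172 CPM. The 3 lowest values of each were thus in the same 3 knockout glands, and the ACTH-treated knockout female lay within the wild-type range of both. Cox8b did not separate the glands, with 58.7 CPM in the untreated knockout female and 64.4 CPM in the untreated wild-type female. The same 3 knockout glands held the highest sums of chromaffin genes and of cortical genes. From the lowest to the highest library Cox7a1 varied 16.2-fold and Cox8b 7.89-fold, against 1.85-fold for Cox7a2 and 1.54-fold for Cox8a. Knockout against wild type, the log2 fold change was -1.66 (SE 0.95, edgeR adjusted p = 0.499) for Cox7a1 and -1.13 (SE 0.76, adjusted p = 0.574) for Cox8b. Without the ACTH-treated knockout female the log2 fold change of Cox7a1 was -2.67, which did not pass either. By RPKM, Cox7a1 made up 12.8 to 72.0% of Cox7a1 and Cox7a2 together, and Cox8b 15.7 to 58.3% of Cox8a and Cox8b.

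Ucp1, the uncoupling protein that defines brown fat, moved with them. It stood at 947 and 310 CPM in untreated wild type (labelled male, then female), 655 and 578 CPM in wild type given ACTH, 33.8 and 81.2 CPM in untreated knockout glands and 27.3 and 886 CPM in knockout glands given ACTH, a range of 34.7-fold. The ratio of Ucp1 to Cox7a1 varied 2.80-fold and that of Ucp1 to Cox8b 6.45-fold. The list of brown adipocyte genes held 9 symbols, of which Zic1 was at 0 in all 8 libraries. Its sum, 1858 to 2658 CPM over wild-type glands and 1462 to 2903 CPM over knockout glands, held 37.4 to 80.4% Kcnk3, a potassium channel that the adrenal cortex expresses too. Without Kcnk3 the sums were 1539 and 565 CPM in untreated wild type, 1300.4 and 1083 CPM in wild type given ACTH, 296 and 302 CPM in untreated knockout glands and 342 and 1689 CPM in knockout glands given ACTH. These sums include Ucp1 and are no separate measure beside it. A list of 11 adipocyte genes did not set the same 3 knockout glands apart. In the same order it summed to 3987 and 2548, 6141 and 3649, 3115 and 2819, and 3144 and 6378 CPM. By Ucp1 alone the libraries fell into 3 knockout glands with little of it and 5 glands with more, so that no correlation was computed. A list of 15 genes of striated muscle, in which the same isoforms are found, summed to 18.8 to 49.2 CPM over wild-type glands and 29.3 to 177 CPM over knockout glands, with the highest sums in the ACTH-treated knockout female and male. Both brown fat and kidney are rich in mitochondria, and the part of their RNA in the levels of the 81 genes was not tested.

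**Figure D5:**
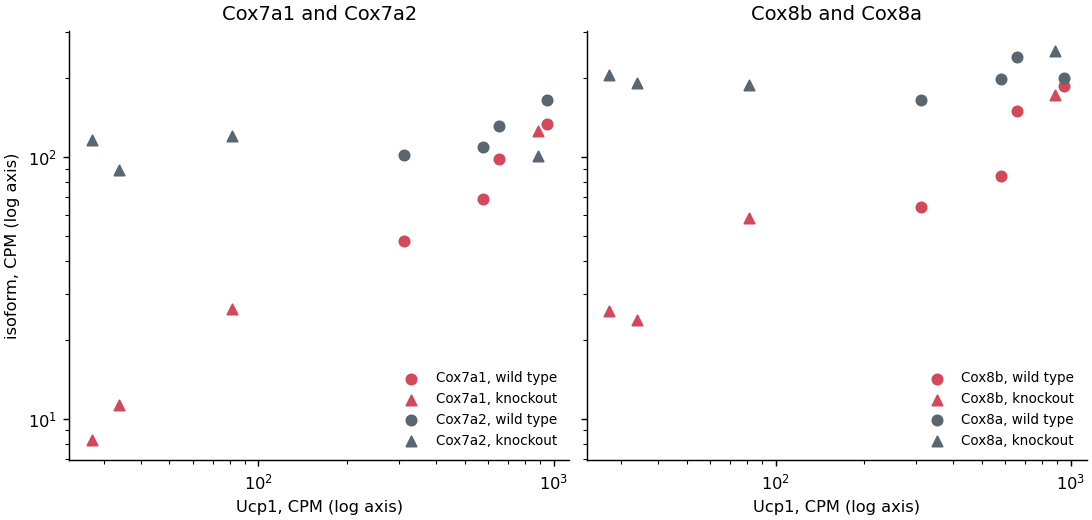
CPM of Cox7a1 and Cox7a2 (left) and of Cox8b and Cox8a (right) against CPM of Ucp1 in the same library, all on log axes; circles are wild-type and triangles knockout libraries. Cox7a1 and Cox8b (red) are lowest in the 3 knockout libraries with the least Ucp1, the highest of which for Cox8b (58.7 CPM) is close to the lowest wild-type library (64.4 CPM), while Cox7a2 and Cox8a (grey) vary less than 2-fold.

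Single libraries set the values of 3 further genes. Ndufs5 stood at 15.3 CPM in the untreated knockout female and at 1.33 to 2.02 CPM in the other 7 libraries. How reads with several matches were handled is not given here, and the low count of this complex I subunit is uncertain. Atp5sl stood at 46.7 CPM in the untreated library labelled wild-type male and at 11.8 to 19.1 CPM elsewhere. Cox4i2, the lung isoform of subunit 4, was not counted in the untreated library labelled wild-type male, which allows up to 0.353 CPM (3 counts), and stood at 0.731 to 3.52 CPM in the other 7.

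Genes that build, feed or regulate the complexes did not pass either, with 0 called in both average comparisons in each of 4 lists. The 44 tested assembly factors had a median log2 fold change of -0.15 for the knockout (31 below 0) and -0.13 for ACTH (28 below 0). Electron carriers, transporters and partners (22 genes) had -0.36 (19 below 0) and 0.16, and their most abundant gene, the mitochondrial phosphate carrier Slc25a3, averaged 1183 ± 248 CPM for wild type and 1804 ± 432 CPM for the knockout (log2 fold change 0.61, SE 0.16, edgeR adjusted p = 0.185). Etfa, a subunit of the electron transfer flavoprotein, stood at 788 ± 105 and 546 ± 249 CPM. The 18 regulators of mitochondrial biogenesis had -0.16 and 0.16, and Lrpprc, which stabilizes mitochondrial messenger RNAs, stood at 139 ± 26.3 and 146 ± 35.0 CPM. The 26 genes of the tricarboxylic acid cycle and the outer membrane had -0.25 and 0.29 (23 above 0 after ACTH). These lists, like the choice of the 81 genes, were drawn up with earlier results of these data known.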

How the data were processed

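RNA of 8 mouse adrenal glands was sequenced. Per the submitters' processing notes, the reads were handled with TopHat2 (2.0.13), Bowtie2 (2.2.5.0), FastQC (0.11) and Partek (6.6) on the build mm10; settings are not given in the sources used here. Per the file headers, the authors deposited an estimated count and an RPKM value for each of 28678 RefSeq transcripts. The library kit marks strand, but whether counting used it is not given, so that overlapping genes are uncertain.

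Here estimated counts were summed per symbol (16 of the 81 genes have several transcripts) and rounded. Genes were kept by filterByExpr (minimum count 10; 15361 kept, 3485 removed), scaled by TMM and tested by quasi-likelihood F-tests in edgeR (4.0.16, under R 4.3.3), with genotype, treatment and sex label as terms (4 residual degrees of freedom), or with genotype by treatment (3); pairs matched by label were also fitted as blocks (3). Benjamini-Hochberg adjustment ran over all tested genes, with a threshold of 0.05. Matched pairs share the labels of the other factors. P-values measure the spread between single animals. Levels between genes use the deposited RPKM, and alternatives used DESeq2 (1.42.0) and limma (3.58.1, pseudocount 0.1 on RPKM). The edgeR test of the average knockout effect was also run on simulated counts with changes of known size. The simulation did not cover the other comparisons or RNA of neighbouring tissues. Positions and promoters are RefSeq's (GRCm38.p6).

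The 81 genes and all lists were chosen with earlier results of these data known. Named genes were the 3 with the highest RPKM in each complex, up to 2 in each direction and complex with 1 sign in all 4 matched pairs, called genes, isoform sets, and the most abundant genes of the other lists (named in part). Further genes were named after their values were seen: Ndufs1, Uqcrc2, Sdhc, Ndufs5, Cox6b2, Atp5s and Atp5sl. The settings without 1 or 2 libraries were chosen with the kidney and liver transcripts known.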

Additional observations from a re-analysis of the deposited data

Results flagged for a closer look

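In 3 of the 42 sets of 4 libraries checked (a gene, or the sum of a complex or of all 81 genes, within a genotype), 1 library lay far from the other 3 (gap over range above Dixon's 95% critical value); chance flags about 1 set in 20. Within the knockout, Uqcrc2 stood at 535 CPM and Cox7a1 at 126 CPM in the ACTH-treated female, against 300.4 to 332 CPM and 8.25 to 26.2 CPM in the other 3 glands; Ucp1 stood at 886 CPM in that library, and the part of brown fat RNA was not tested. Within wild type, Ndufc1 stood at 222 CPM in the library labelled untreated male, the library with kidney transcripts, against 105 to 112 CPM in the others.

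The median knockout effect over the 81 genes had opposite signs by sex label in every pair, and the mean of the female pairs exceeded that of the male pairs by 0.66 in log2 CPM. That difference of medians was not tested, and gene by gene no member passed for it.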

How the results depend on the processing

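No member was called in any of the 7 comparisons under any other setting, except that DESeq2 called 1 for the knockout (Sdha). Over all genes, DESeq2 called 947 for the knockout and limma-voom 108, against 4 by the main edgeR test. With 1 library left out in turn the number called stayed at 0, while the knockout median ranged from -0.26 to 0.10 and the ACTH median from -0.05 to 0.23, so that neither sign is fixed. By complex the knockout median ranged from -0.15 to 0.13 (I), -0.63 to -0.11 (II), -0.35 to -0.08 (III), -0.31 to 0.12 (IV) and -0.22 to 0.02 (V). Of the 81 genes, 38 changed sign in at least 1 of the 8 fits without 1 library for the knockout and 53 for ACTH; among 15 genes named in the text these were Ndufs7 (-0.11 to 0.23) and Cox8a (-0.036 to 0.16) for the knockout, and Uqcrb (-0.11 to 0.14), Ndufs1 (-0.0052 to 0.36), Cox7a1 (-0.51 to 1.55) and Cox8b (-0.35 to 1.27) for ACTH. Without both libraries with kidney or liver transcripts, Uqcrb had 0.13 for ACTH and the complex I median was 0.24; the cause was not tested. Sdha stayed between -0.82 and -0.49 for the knockout. The replicate numbers follow accession order and pair no animals. A replicate block of the 4 pairs matched by label, added after the data were seen, called 0 of the 81 genes in both average comparisons (medians -0.099 and 0.062), and 69 and 10 of all genes against 4 and 3 without the block. Without sex label as a covariate the number called was 0. Total counts differed 3.69-fold between libraries, and the SE of a typical member (0.20) limits what 4 animals against 4 can show.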
